A study of Mus musculus with 2 samples.

Results

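The 29 genes described here encode enzymes of cholesterol synthesis, the enzymes that make and desaturate fatty acids, and the proteins that set the activity of both pathways. They were listed by gene name, with earlier results of these data known, and each was 1 of the 28000 features counted in both libraries. The list held 18 sterol enzymes, 6 genes of regulation and sterol transport, and 5 fatty acid genes.

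Single-cell RNA-seq (10x Genomics, 3′ chemistry) was performed on dissociated prostate tissue of 2 mouse genotypes, with 1 library each. The paper describes the DoubleTg tissue as holding high-grade prostatic intraepithelial neoplasia and cancer lesions, and the TripleTg tissue as cancer. Lesion type thus differed along with genotype, and the 2 cannot be told apart here. DoubleTg mice (hHGFtg:H11 hMET/+:PB Cre4) carried a human HGF transgene expressed throughout the body and a conditional human MET transgene (hMETtg) at the H11 locus. Cre driven by the probasin promoter, which is active in prostate epithelium, switches hMETtg on. TripleTg mice carried the same alleles and a Ctnnb1 L(Ex3)/+ allele, from which Cre removes exon 3 to leave a stabilised β-catenin. Both groups therefore shared every allele of the DoubleTg mice, and no library without transgenes was analysed here. The ages of the sequenced mice and the number of animals behind each library are not given in the sources used here, and the dissociation medium contained dihydrotestosterone, an androgen. Of 12072 DoubleTg cell barcodes 10598 were kept, with a median of 16761 unique molecular identifiers (UMIs, each marking 1 captured RNA molecule), and all 9492 TripleTg barcodes were kept, with a median of 20097.

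A mammalian cell builds cholesterol from acetyl-CoA through mevalonate, isoprenoid and squalene steps, and closes squalene into a sterol ring that later enzymes trim to cholesterol. The same acetyl-CoA feeds fatty acid synthesis, whose saturated products are given a double bond by stearoyl-CoA desaturases. Both pathways are switched on by the transcription factors SREBP1 and SREBP2, which SCAP escorts out of the endoplasmic reticulum when sterols are low and which INSIG proteins hold back when sterols are plentiful. SREBP1 is known above all for fatty acid genes and SREBP2 for sterol genes. Prostate epithelium makes much lipid, and androgens are known to raise these genes there. Schwann cells make large amounts of cholesterol for myelin.

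SREBP proteins bind short sterol regulatory elements close to the start of their target genes, often beside sites of NF-Y and Sp1. Promoters from RefSeq (GRCm38.p6) of 300 bases, 250 upstream and 50 downstream of the start, were matched for 23 of the 29 genes. The letters TCACNCCAC, searched on both strands, were in the promoter of 1 of these genes, Hmgcs1, and in 1.44% of all 27025 genes with a promoter. The NF-Y letters CCAAT were in 20 of 23 genes (41.1% of all genes) and the Sp1 letters GGGCGG in 20 of 23 (38.2% of all genes), each on either strand. These matches describe letters in a window, and other forms of each element were not searched. Printed here, 5′ to 3′ on the gene's strand, are the promoter that held the sterol letters (Hmgcs1, chr13:119690101-119690400, + strand, first base at -137 from the start) and 3 that did not: the SREBP2 gene Srebf2 (chr15:82147019-82147318, + strand), Idi1 (chr13:8885356-8885655, + strand) and Tm7sf2 (chr19:6067801-6068100, - strand). The last 3 were picked after their levels were seen, because Srebf2 and Idi1 were higher and Tm7sf2 lower in TripleTg luminal-like cells. Capitals mark the sterol letters and every CCAAT on either strand.
Hmgcs1: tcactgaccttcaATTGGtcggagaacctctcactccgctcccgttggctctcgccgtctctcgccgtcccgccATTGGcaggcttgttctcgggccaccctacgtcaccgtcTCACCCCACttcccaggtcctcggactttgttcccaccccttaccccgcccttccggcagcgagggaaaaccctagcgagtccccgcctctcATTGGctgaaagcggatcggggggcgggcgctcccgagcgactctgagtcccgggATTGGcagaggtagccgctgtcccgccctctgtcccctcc
Srebf2: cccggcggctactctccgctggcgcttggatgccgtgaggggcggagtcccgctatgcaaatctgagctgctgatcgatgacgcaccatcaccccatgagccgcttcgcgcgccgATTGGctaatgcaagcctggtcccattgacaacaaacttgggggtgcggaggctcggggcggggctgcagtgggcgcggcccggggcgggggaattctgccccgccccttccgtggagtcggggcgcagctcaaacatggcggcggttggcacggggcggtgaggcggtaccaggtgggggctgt
Idi1: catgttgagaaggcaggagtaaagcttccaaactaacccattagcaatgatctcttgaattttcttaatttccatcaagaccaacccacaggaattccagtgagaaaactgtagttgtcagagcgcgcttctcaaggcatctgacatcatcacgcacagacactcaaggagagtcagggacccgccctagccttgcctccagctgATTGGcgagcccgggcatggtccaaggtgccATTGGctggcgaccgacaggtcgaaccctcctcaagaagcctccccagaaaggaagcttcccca
Tm7sf2: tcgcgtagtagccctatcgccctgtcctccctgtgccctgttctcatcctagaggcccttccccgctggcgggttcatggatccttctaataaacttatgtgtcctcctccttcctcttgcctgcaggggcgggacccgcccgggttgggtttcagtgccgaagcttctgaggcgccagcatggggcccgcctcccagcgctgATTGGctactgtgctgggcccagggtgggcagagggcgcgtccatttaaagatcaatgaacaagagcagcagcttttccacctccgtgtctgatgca

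Cells were clustered within each library without these genes, and clusters were named from marker lists. Luminal-like cells, the secretory cells of the prostate, were 5016 DoubleTg cells in 10 clusters and 4773 TripleTg cells in 8 clusters. Basal-like cells numbered 1868 and 1093, and seminal vesicle-like cells 126 and 674. Levels are given as CPM, the UMIs of a gene divided by all UMIs of the class and scaled to a fixed total, which allow 1 gene to be compared between groups of cells but not 1 gene with another. Brackets after log2 ratios hold 95% intervals that cover counting error only. With 1 library per genotype, no difference has a replicate check or a test. A gene is called higher or lower when it had at least 5 CPM in either group and differed by at least 2-fold, with counts under 3 UMIs raised to 3 UMIs before the call, and the share of all features called the same way stands beside each count.

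In luminal-like cells the sterol enzymes did not shift together between the libraries. Of the 26 members with at least 5 CPM, 1 (Hmgcs1) was at least 2-fold higher in TripleTg and 6 were lower (Fdft1, Tm7sf2, Srebf1, Stard4, Scd1 and Scd2). Over all 9055 features of that level, 11.5% were higher and 12.7% lower. Hmgcs1, which makes HMG-CoA at the entry to the mevalonate pathway (chr13:119690379-119708260, + strand, GRCm38), stood at 16.8 CPM (3344 UMIs) in DoubleTg and 42.4 CPM (6193 UMIs) in TripleTg, a log2 ratio of 1.33 (1.27 to 1.39). The 18 sterol enzymes summed to 404 CPM in DoubleTg and 415 CPM in TripleTg, and their median log2 ratio was -0.01, beside -0.02 for all features. The TripleTg cluster with Tchh, Cnfn and Krt73 among its leading genes, which are genes of cornified and hair cells, was named luminal-like from 6 of 9 luminal markers. Without it the same 7 members were called (11.6% of features higher and 12.0% lower), the log2 ratio of Hmgcs1 was 1.07 (1.001 to 1.13) and the median of the sterol enzymes -0.11. Over all kept cells of each library, 0 of 27 members were higher (8.78% of features) and the same 6 were lower (10.7%).

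**Figure D1:**
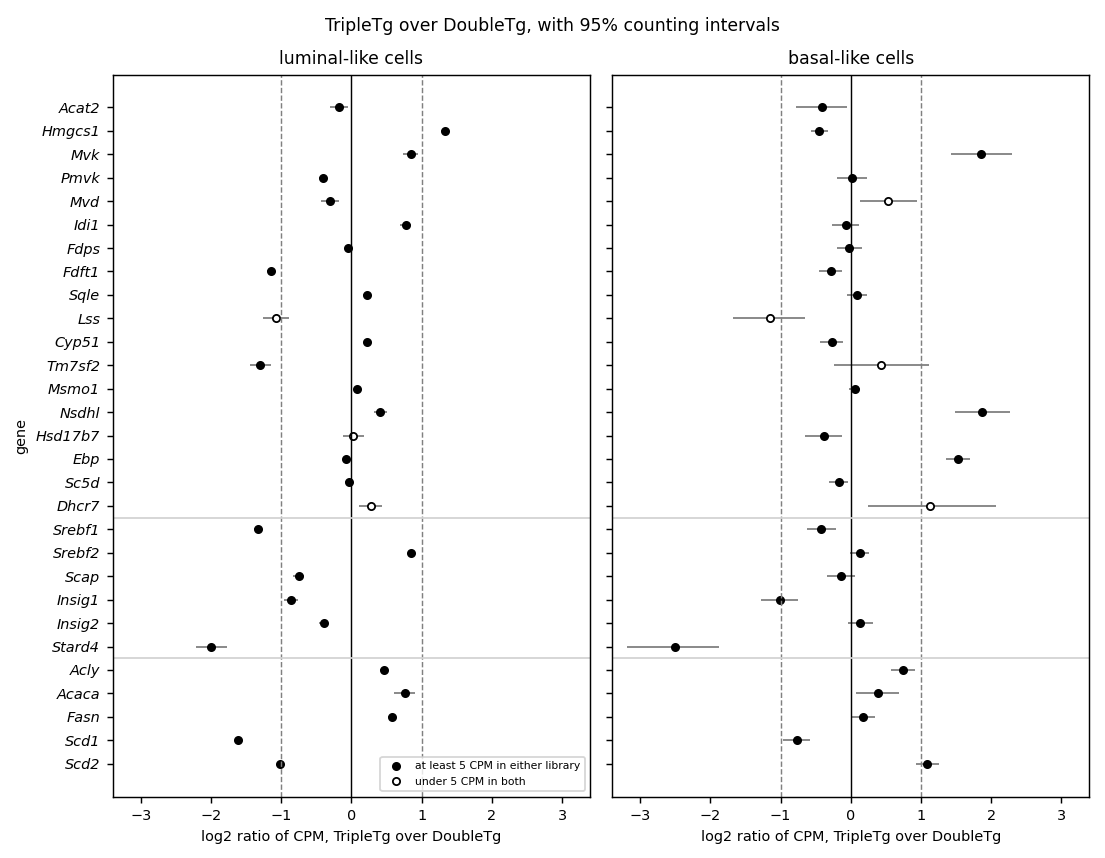
Log2 ratio of CPM, TripleTg over DoubleTg, for each of the 29 genes in luminal-like and basal-like cells. Points are ratios of summed UMIs, bars 95% counting intervals, and dashed lines 2-fold. In luminal-like cells Hmgcs1 lies farthest to the right, at 1.33, and Stard4 farthest to the left, at -1.99.

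Among the other enzymes of the mevalonate and isoprenoid steps, Mvk (mevalonate kinase) was at 6.74 CPM (1338 UMIs) in DoubleTg and 12.1 CPM (1764 UMIs) in TripleTg, a log2 ratio of 0.84 (0.74 to 0.95). Idi1 (isopentenyl-diphosphate isomerase) was at 13.6 CPM (2692 UMIs) in DoubleTg and 23.1 CPM (3376 UMIs) in TripleTg, a log2 ratio of 0.77 (0.70 to 0.84). Both were higher in TripleTg by less than 2-fold. Fdps, which makes farnesyl diphosphate, was nearly level at 37.8 CPM in DoubleTg and 36.7 CPM in TripleTg. It shares exon sequence on the same strand with Gm43738, so its count is uncertain. Acat2, the thiolase of the first step, Pmvk and Mvd had log2 ratios of -0.18, -0.40 and -0.31.

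Fdft1, the squalene synthase that commits the pathway to sterols, was at 43.8 CPM (8696 UMIs) in DoubleTg and 19.8 CPM (2892 UMIs) in TripleTg, a log2 ratio of -1.14 (-1.21 to -1.08). Its exons overlap those of Ctsb on the opposite strand. Sqle, the epoxidase of the next step, had a log2 ratio of 0.22. Lss, which closes the ring, had one of -1.08, at 4.76 CPM in DoubleTg and 2.25 CPM in TripleTg, under the 5 CPM limit. Without the Tchh-led TripleTg cluster Sqle was at -0.03, Fdft1 at -1.27 and Lss at -1.18. Fdft1 and Lss were thus lower in TripleTg either way, while the sign of Sqle depended on that cluster.

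Tm7sf2, a sterol C14-reductase, was at 8.20 CPM (1629 UMIs) in DoubleTg and 3.33 CPM (487 UMIs) in TripleTg, a log2 ratio of -1.30 (-1.45 to -1.15). It shares exon sequence on the same strand with Vps51, and its count is uncertain. The other trimming enzymes differed less. Msmo1, the C4-methyl oxidase, was at 62.8 CPM (12478 UMIs) in DoubleTg and 66.3 CPM (9685 UMIs) in TripleTg, a log2 ratio of 0.08 (0.04 to 0.12). Cyp51, the C14-demethylase, was at 32.4 CPM in DoubleTg and 38.0 CPM in TripleTg, and Ebp, the sterol isomerase, at 56.7 CPM in DoubleTg and 53.6 CPM in TripleTg. Nsdhl, Hsd17b7, Sc5d and Dhcr7 had log2 ratios of 0.41, 0.03, -0.04 and 0.27, so that every one of these 7 lay within 0.41 of level.

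The 2 SREBP genes parted in luminal-like cells. Srebf1, which encodes SREBP1, was at 51.6 CPM (10255 UMIs) in DoubleTg and 20.5 CPM (2994 UMIs) in TripleTg, a log2 ratio of -1.33 (-1.39 to -1.27). Srebf2, which encodes SREBP2, was at 39.6 CPM (7859 UMIs) in DoubleTg and 71.2 CPM (10407 UMIs) in TripleTg, a log2 ratio of 0.85 (0.81 to 0.89). Srebf1 was thus lower and Srebf2, by less than 2-fold, higher in TripleTg. Scap, the escort protein, was at 21.5 CPM (4266 UMIs) in DoubleTg and 12.8 CPM (1863 UMIs) in TripleTg, a log2 ratio of -0.75 (-0.83 to -0.67). Insig1, a retention protein that is itself an SREBP target, was at 14.7 CPM (2922 UMIs) in DoubleTg and 8.07 CPM (1179 UMIs) in TripleTg, a log2 ratio of -0.87 (-0.96 to -0.77). Its relative Insig2 was at 29.8 CPM in DoubleTg and 22.6 CPM in TripleTg. All 3 of these had less RNA in TripleTg, by less than 2-fold. Stard4, a cytosolic sterol carrier, was at 5.59 CPM (1111 UMIs) in DoubleTg and 1.40 CPM (205 UMIs) in TripleTg, a log2 ratio of -1.99 (-2.22 to -1.78).

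Among the fatty acid genes the synthesis enzymes and the desaturases parted. Acly, which splits citrate to acetyl-CoA, was at 33.6 CPM in DoubleTg and 46.3 CPM in TripleTg, and Fasn, the synthase, at 23.9 CPM in DoubleTg and 35.8 CPM in TripleTg. Acaca, the carboxylase that makes malonyl-CoA, was at 3.41 CPM (677 UMIs) in DoubleTg and 5.77 CPM (843 UMIs) in TripleTg, a log2 ratio of 0.76 (0.61 to 0.91). All 3 were higher in TripleTg by less than 2-fold. Scd1 was at 103 CPM (20416 UMIs) in DoubleTg and 33.5 CPM (4895 UMIs) in TripleTg, a log2 ratio of -1.62 (-1.66 to -1.57). Scd2 was at 135 CPM (26719 UMIs) in DoubleTg and 66.1 CPM (9660 UMIs) in TripleTg, a log2 ratio of -1.02 (-1.06 to -0.99). Both desaturase genes were thus at least 2-fold lower in TripleTg, although Scd2 was at -0.97 in cells with an hMETtg UMI. The median log2 ratio over the 5 genes was 0.46 while the mean was -0.17, and the summed level was 298 CPM in DoubleTg and 187 CPM in TripleTg. Scd1 and Scd2 are close paralogs near each other (chr19:44394455-44407879, - strand, and chr19:44293674-44306864, + strand, GRCm38), and reads of a shared stretch could be counted for either.

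Several other measures of luminal-like cells also differed between the libraries. The 9 genes of an androgen-regulated list summed to 7231 CPM in DoubleTg and 315 CPM in TripleTg, and did not move as 1 group. The secretory genes Msmb (5178 CPM) and Pbsn (1646 CPM) made up most of the DoubleTg sum and were at 0 and 7.10 CPM in TripleTg. Also lower in TripleTg were Fkbp5 (53.7 CPM in DoubleTg and 2.11 CPM in TripleTg), Mme (212 and 1.18 CPM), Zbtb16 (18.6 and 4.16 CPM) and Tsc22d3 (13.3 and 6.64 CPM). Ndrg1 was higher in TripleTg, at 44.1 CPM in DoubleTg and 197 CPM in TripleTg, as was Tmprss2, at 61.4 and 93.5 CPM, while Steap4 was at 3.27 and 2.98 CPM. The 7 genes of Wnt output, among them Axin2 and Lef1, summed to 7.02 and 245 CPM, and 15 proliferation genes to 24.8 and 161 CPM. Of 6 adipocyte markers, which summed to 1.06 CPM in DoubleTg and 399 CPM in TripleTg, nearly all UMIs were of Fabp4, at 0.997 and 399 CPM. Without the Tchh-led TripleTg cluster, Fabp4 was at 49.999 CPM. The other 5, among them Adipoq and Plin1, had at most 10 UMIs each in either library. The 6 sebaceous markers stayed near 0, at 0.312 and 0.287 CPM. The part of these genes in the levels of the lipid genes was not tested. Without cycling cells, the log2 ratio of Hmgcs1 was 1.28 and that of Scd1 -1.61.

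Each library held several luminal-like clusters. Clusters of 1 library are not replicates. None of the 26 members had all 8 TripleTg clusters above all 10 DoubleTg clusters, as 6.71% of features did. For 3 members, Fdft1, Srebf1 and Scap, all TripleTg clusters lay below all DoubleTg clusters, as for 6.68% of features. Srebf1 ran from 32.1 to 80.5 CPM over DoubleTg clusters (median 45.3 CPM) and from 14.3 to 24.9 CPM over TripleTg clusters (median 19.9 CPM). Fdft1 ran from 31.5 to 67.2 CPM over DoubleTg clusters (median 43.5 CPM) and from 10.4 to 30.0 CPM over TripleTg clusters (median 18.6 CPM). Scap ran from 17.1 to 25.8 CPM over DoubleTg clusters (median 21.1 CPM) and from 11.3 to 14.1 CPM over TripleTg clusters (median 12.6 CPM).

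Hmgcs1 overlapped between the libraries. Its levels ran from 7.35 to 28.99 CPM over DoubleTg clusters (median 18.1 CPM) and from 21.1 to 85.6 CPM over TripleTg clusters (median 41.9 CPM), and 5 of 8 TripleTg clusters lay above the highest DoubleTg cluster. For Srebf2 6 of 8 did so and for Fasn 7 of 8. Fasn was also even across TripleTg clusters, where its highest level was 1.21 times its lowest, against 4.05 times for Hmgcs1. Stard4 and Scd1 varied most widely in DoubleTg, with a highest cluster 11.7 and 7.47 times the lowest. Scd1 ran there from 25.1 CPM in the Gsdmc2-led cluster to 187 CPM in the cluster led by Pcp4 and Msmb, and in TripleTg from 20.01 to 56.8 CPM.

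**Figure D2:**
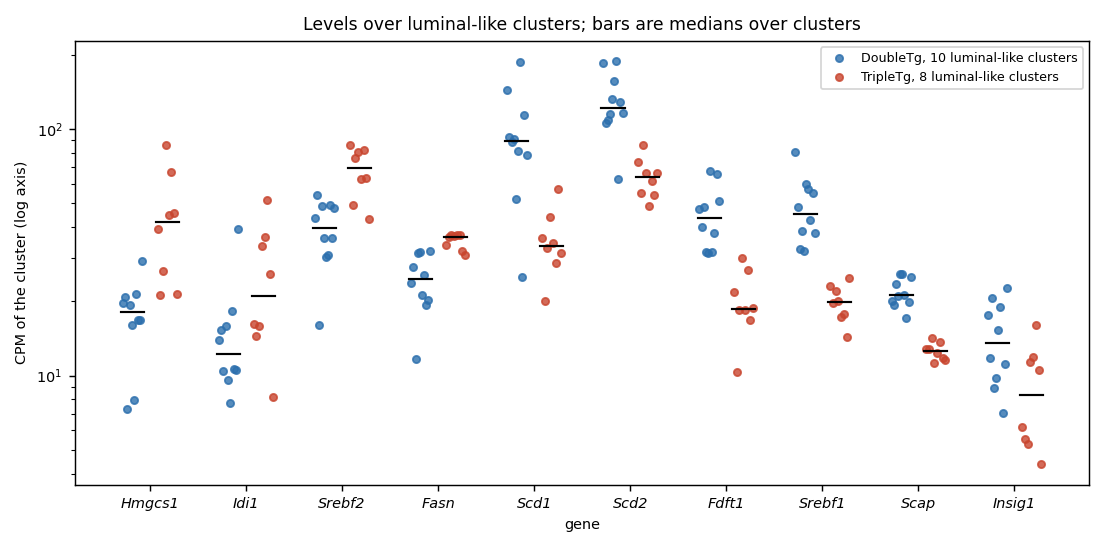
CPM on a log axis of 10 genes in each luminal-like cluster (points) of DoubleTg (blue) and TripleTg (red), with bars at the medians over clusters. The Srebf1, Scap and Fdft1 points of the libraries do not overlap, while those of Hmgcs1 overlap between 21.1 and 28.99 CPM.

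The summed sterol enzymes also differed between clusters of 1 library. In DoubleTg the cycling Ube2c-led cluster of 86 cells was highest, at 598 CPM, and the Sbp-led cluster lowest, at 296 CPM. In TripleTg the cycling cluster of 237 cells was at 634 CPM. A cluster of 622 cells led by Tchh, Fabp4 and Krt73, with 0% cycling cells, was close to it at 614 CPM. The Tchh-led cluster held the highest TripleTg luminal-like level of Hmgcs1 (85.6 CPM), Sqle (65.6 CPM), Msmo1 (94.7 CPM), Sc5d, Nsdhl, Hsd17b7 and Fdft1, and its 10 leading genes held no luminal marker. The lowest sums in TripleTg were those of the Ifit3-led cluster, at 274 CPM, and of the cluster with Tgm4 among its leading genes, at 277 CPM.

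Within TripleTg the 18 enzymes ordered the luminal-like clusters in a similar way. Spearman's coefficient of each enzyme with the sum of the other enzymes over the 8 clusters ran from 0.57 to 1, with a median of 0.87. Over the 10 DoubleTg clusters it ran from -0.24 to 0.93, with a median of 0.59, and Fdft1, Tm7sf2, Sc5d and Dhcr7 were below 0. The clusters share a library, so these values are a description. In TripleTg Insig1 ran with the sum, at 0.95, and Srebf1 and Insig2 ran against it, at -0.57 and -0.86.

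Clusters with like leading genes were also compared with each other. Between the clusters with Tgm4 among their leading genes (441 DoubleTg and 1092 TripleTg cells) 0 members were higher in TripleTg (10.9% of features) and 6 were lower (16.1%: Fdft1, Lss, Tm7sf2, Scap, Scd1 and Scd2). Between the interferon-response clusters, led by Rsad2 and Ifit3, 0 members were higher (11.2%) and 8 were lower (11.9%: Acat2, Pmvk, Fdps, Fdft1, Tm7sf2, Srebf1, Insig1 and Scd1). Between the cycling clusters 1 was higher (9.02%: Hmgcs1) and 6 were lower (15.9%: Mvd, Lss, Tm7sf2, Srebf1, Stard4 and Scd1). Hmgcs1 had log2 ratios of 0.40 (0.18 to 0.62), 0.34 (-0.09 to 0.76) and 1.21 (0.91 to 1.52) in these 3 pairs, and Scd1 of -1.37, -1.86 and -1.45. Scd1 and Tm7sf2 were thus at least 2-fold lower in all 3 pairs, and Hmgcs1 at least 2-fold higher in the cycling pair alone. The share of all features called in all 3 pairs was not counted, and the Tm7sf2 count is uncertain because of Vps51. The cycling pair was unequal, with 44.2% cycling cells in the DoubleTg and 83.5% in the TripleTg cluster, and the part of this in the ratios was not tested.

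In basal-like cells, the keratin 5 and keratin 14 cells next to the basement membrane, Mvk, Nsdhl, Ebp and Scd2 were higher and Insig1 and Stard4 lower in TripleTg. Of these 6, Stard4 was also called lower in luminal-like cells, and Scd2 was called there in the other direction. Of 25 members with at least 5 CPM, 4 were higher in TripleTg (15.5% of features) and 2 lower (14.0%). Nsdhl, a C4-decarboxylase of the sterol ring, was at 2.67 CPM (69 UMIs) in DoubleTg and 9.77 CPM (267 UMIs) in TripleTg, a log2 ratio of 1.87 (1.49 to 2.28). Mvk was at 2.28 CPM (59 UMIs) in DoubleTg and 8.23 CPM (225 UMIs) in TripleTg, a log2 ratio of 1.85 (1.43 to 2.29). Ebp was at 14.9 CPM (385 UMIs) in DoubleTg and 42.8 CPM (1171 UMIs) in TripleTg, a log2 ratio of 1.53 (1.36 to 1.69). Beside these 3 enzymes the median over the 18 was -0.00 and the mean 0.24, with a median of -0.08 for all features. Of the TripleTg basal-like cells, 298 formed a cluster led by Mt4, with Sprr1b, Asprv1 and Krt42, cornified and hair cell genes, among its 10 leading genes and among those of no DoubleTg basal-like cluster. It had 7 of 8 basal markers raised. Without it Mvk, Nsdhl and Ebp were still called higher (14.5% of features), while Scd2 was not, at 0.97 (0.79 to 1.14), and Hsd17b7 joined Stard4 and Insig1 among the lower members (13.0%).

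The desaturases parted in basal-like cells. Scd2 was at 17.2 CPM (444 UMIs) in DoubleTg and 36.5 CPM (998 UMIs) in TripleTg, a log2 ratio of 1.09 (0.93 to 1.25), and Scd1 at 23.4 CPM in DoubleTg and 13.8 CPM in TripleTg. Hmgcs1 was at 49.5 CPM in DoubleTg and 36.3 CPM in TripleTg. Stard4 was at 5.18 CPM (134 UMIs) in DoubleTg and 0.915 CPM (25 UMIs) in TripleTg, a log2 ratio of -2.50 (-3.18 to -1.88), and Insig1, the SREBP retention protein, at 13.5 CPM (349 UMIs) in DoubleTg and 6.69 CPM (183 UMIs) in TripleTg, a log2 ratio of -1.01 (-1.28 to -0.75). Stard4 was at least 2-fold lower in TripleTg luminal-like, basal-like and fibroblast-like cells. It was also called lower in dendritic-like cells, on 23 DoubleTg UMIs and 1 TripleTg UMI. Srebf1 and Srebf2 had log2 ratios of -0.42 and 0.13. Fabp4, which took nearly all UMIs of the adipocyte markers, was at 7.69 CPM in DoubleTg and 258 CPM in TripleTg basal-like cells, with Adipoq, Plin1 and Lep at 0 in both, and its part was not tested.

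Within DoubleTg, more of these genes were lower than higher in basal-like cells against luminal-like cells. Of 27 members 2 were higher in basal-like cells (18.6% of features) and 9 were lower (20.7%), and the median sterol enzyme was at -0.62, beside 0.10 for all features. The 2 higher members were Hmgcs1, at 49.5 CPM in basal-like and 16.8 CPM in luminal-like cells, and Hsd17b7, at 10.1 CPM in basal-like and 4.43 CPM in luminal-like cells. Scd2 differed most, at 17.2 CPM in basal-like and 135 CPM in luminal-like cells, a log2 ratio of -2.97 (-3.11 to -2.83). The other lower members were Mvk, Pmvk, Tm7sf2, Nsdhl, Ebp, Srebf1, Acly and Scd1. In TripleTg the 2 classes lay closer, with 0 members higher (10.8%), 2 lower (8.64%) and a median sterol enzyme at -0.33, beside -0.03 for all features. Those 2 were Srebf2, at 35.2 CPM in basal-like and 71.2 CPM in luminal-like cells, and Scd1, at 13.8 CPM in basal-like and 33.5 CPM in luminal-like cells.

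Seminal vesicle-like cells, which express secretory proteins of the seminal vesicle, had low levels of these genes. The sterol enzymes summed to 228 CPM in DoubleTg and 162 CPM in TripleTg. Against luminal-like cells, 15 members were lower in DoubleTg (23.7% of features) and 21 in TripleTg (45.5%), with 0 higher in either (5.72% and 4.04%). The 50 most abundant genes took 54.5% and 59.5% of UMIs in these cells, against 32.9% and 30.2% in luminal-like cells, and a larger share for them leaves fewer CPM for other genes. Between the libraries 0 members were higher in TripleTg (5.33%) and 5 were lower (16.8%: Acat2, Pmvk, Fdft1, Srebf1 and Insig1). Fdft1 was at 39.3 CPM (203 UMIs) in DoubleTg and 12.9 CPM (364 UMIs) in TripleTg.

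The TripleTg seminal vesicle-like cells joined 2 unlike clusters, a Crisp1-led one of 443 cells with 190.5 CPM over the sterol enzymes and an Sva-led one of 231 cells with 93.8 CPM. With the Crisp1-led cluster alone, 2 members were higher (6.66%: Hsd17b7 and Scd1) and 5 lower (13.0%). With the Sva-led cluster alone, 0 were higher (3.55%) and 12 were lower (57.0%). Of the 574 Scd1 UMIs of the TripleTg class, 253 came from 1 cell.

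**Figure D3:**
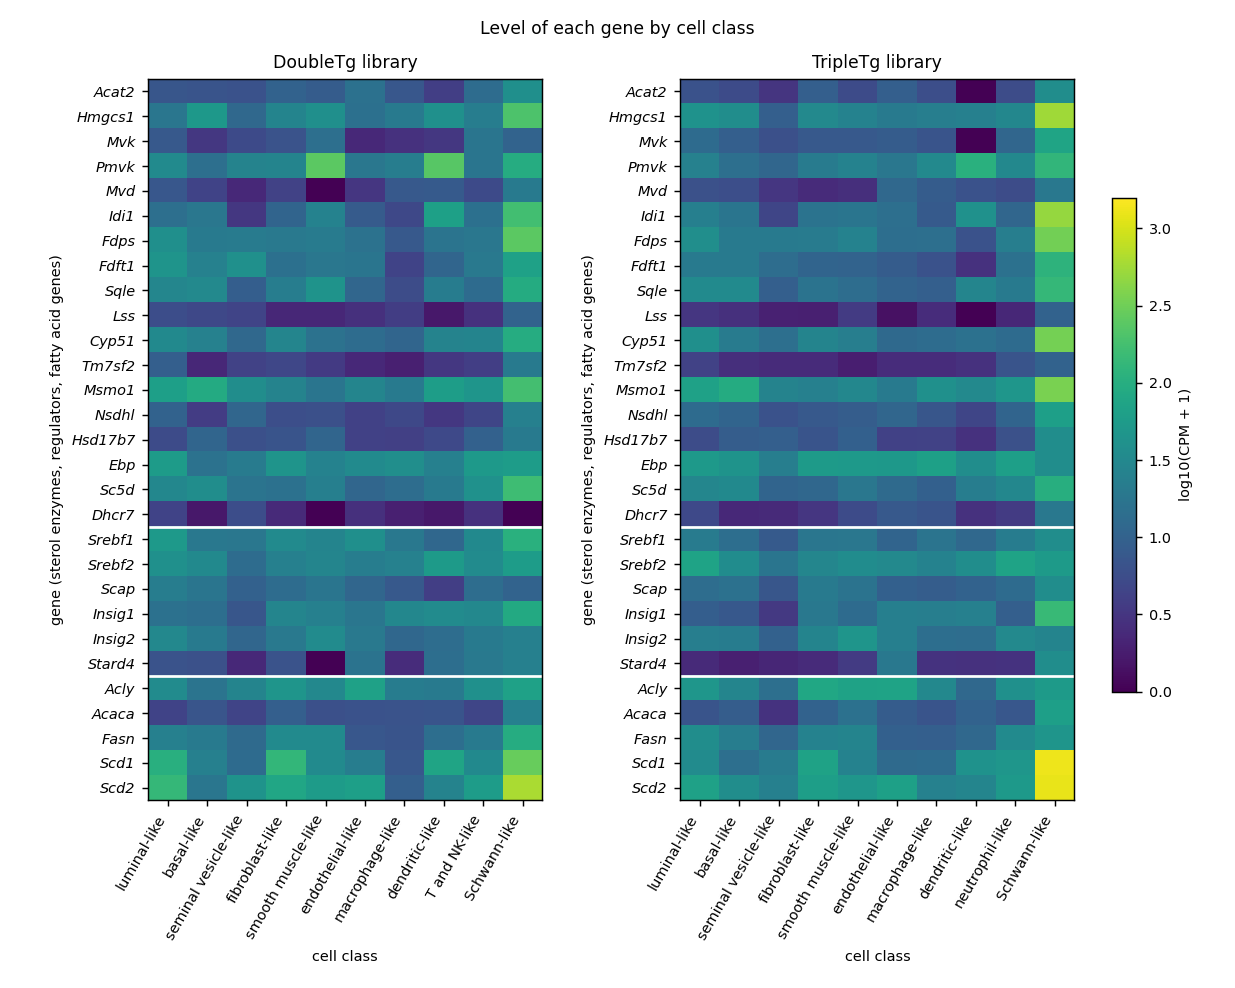
Level of each gene, on a log scale of CPM, in each named class of the DoubleTg and TripleTg libraries. The Schwann-like column is the highest for most genes, with Scd1 at 1317 CPM in TripleTg.

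Schwann-like cells, the glia of peripheral nerve, stood out in both libraries. They expressed all 6 Schwann markers, which summed to 2886 CPM in DoubleTg and 7756 CPM in TripleTg, and all 6 sebaceous markers were at 0 in them. The luminal secretory genes Pbsn and Msmb were at 124 and 335 CPM in the DoubleTg Schwann-like cells, where luminal-like cells had 1646 and 5178 CPM. In TripleTg both were at 0 in Schwann-like cells, while luminal-like cells had only 7.10 and 0 CPM. The part of RNA from other cells was not tested in either library. The Schwann-like cells were few, with 39 cells and 208943 UMIs in DoubleTg and 25 cells and 110886 UMIs in TripleTg. Of members with at least 5 CPM in some named class, 23 of 27 were highest in Schwann-like cells in DoubleTg and 24 of 28 in TripleTg, as were 18.4% and 23.3% of features. In TripleTg 3 of the 24, Mvd, Tm7sf2 and Dhcr7, rested on fewer than 3 Schwann-like UMIs. Against all other cells of the library, 23 members were higher in DoubleTg (36.9%) and 24 in TripleTg (53.9%), with 0 lower (8.46% and 7.02%). These counts include members with 1 or 2 Schwann-like UMIs, raised to 3 for the call, namely Mvk and Lss in DoubleTg and Mvd, Lss, Tm7sf2 and Dhcr7 in TripleTg, and 21 and 20 members were higher without them. The shares of all features include such calls as well. Against luminal-like cells alone the counts were 22 higher in DoubleTg (40.0%) and 23 in TripleTg (53.7%), with 0 lower (9.24% and 7.70%), or 20 and 19 higher without the same members.

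Idi1 in DoubleTg was at 168 CPM (35 UMIs) against 13.8 CPM in all other cells, a log2 ratio of 3.61 (3.08 to 4.08), and in TripleTg at 496 CPM (55 UMIs) against 18.8 CPM in all other cells, a log2 ratio of 4.72 (4.31 to 5.11). Hmgcs1 in DoubleTg was at 201 CPM (42 UMIs) against 20.7 CPM in all other cells and in TripleTg at 550.1 CPM (61 UMIs) against 35.7 CPM in all other cells. Both enzymes were thus far above the rest of each library. Scd1 in DoubleTg was at 282 CPM (59 UMIs) against 90.4 CPM in all other cells and in TripleTg at 1317 CPM (146 UMIs) against 30.5 CPM in all other cells. The counts came from few cells. The Hmgcs1 UMIs were in 10 DoubleTg and 13 TripleTg cells, and 30 of the 52 Fdps UMIs of DoubleTg were in 1 cell. Ebp, Srebf2 and Insig2 were not called higher in either library. Dhcr7 had 0 UMIs in DoubleTg Schwann-like cells, where the call floor of 3 UMIs equals 14.4 CPM.

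**Figure D4:**
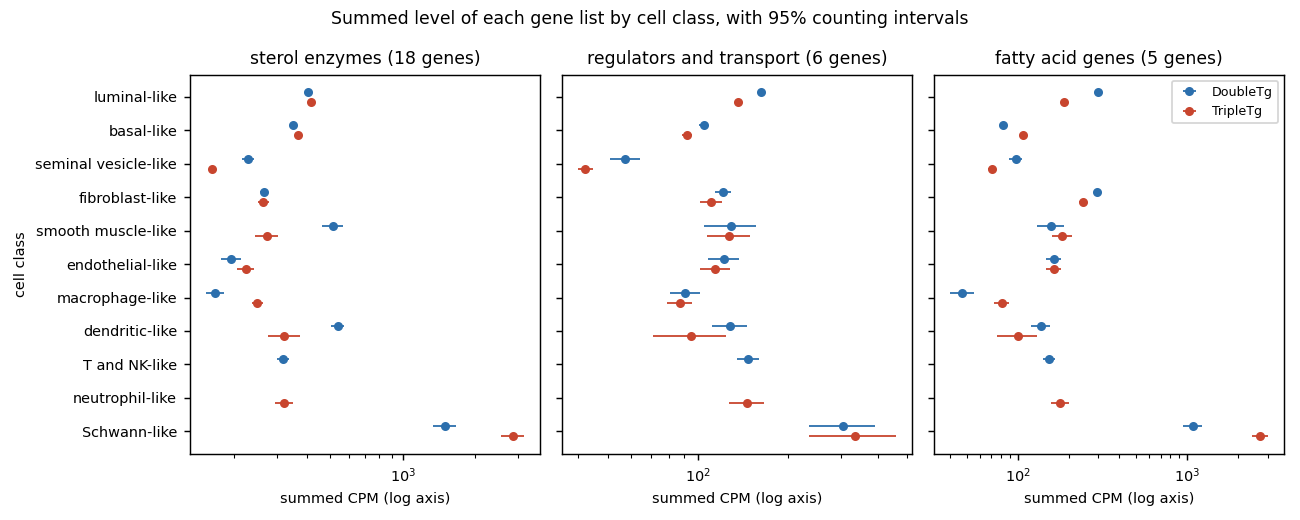
Summed CPM on a log axis of the 18 sterol enzymes, the 6 regulators and the 5 fatty acid genes in each named class of DoubleTg and TripleTg, with 95% counting intervals. Schwann-like cells are highest for the sterol enzymes, at 1493 and 2859 CPM, and TripleTg seminal vesicle-like cells lie at 162 CPM.

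Between the libraries 10 members were higher in TripleTg Schwann-like cells (8.25% of features) and 2 were lower (7.42%: Srebf1 and Fasn), with Tm7sf2 (4 and 1 UMIs) and Dhcr7 (0 and 2 UMIs) under the count floor and an all-feature median of 0.59. The counting interval lay above level for 7 of the 10, among them Scd1 at 2.22 (1.78 to 2.68) and Cyp51 at 1.84 (1.02 to 2.70). With Schwann-like cells set aside, luminal-like cells were highest for 8 members in DoubleTg and 9 in TripleTg, as for 13.0% and 9.89% of features.

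In the other classes single genes stood out. Pmvk, phosphomevalonate kinase, was at 235 CPM (401 UMIs) in DoubleTg and 106 CPM (58 UMIs) in TripleTg in dendritic-like cells, and its DoubleTg UMIs were in 67 of 96 cells. In smooth muscle-like cells it was at 248 CPM (196 UMIs) in DoubleTg and 25.1 CPM (29 UMIs) in TripleTg, and 1 DoubleTg cell held 51 of those UMIs. Both classes thus had more Pmvk in DoubleTg. Among dendritic-like cells 1 member was higher in TripleTg (22.0%: Scap) and 3 were lower (4.69%: Pmvk, Fdps and Stard4). The Scap call rests on 5 UMIs in each library, and the Stard4 call on 23 in DoubleTg and 1 in TripleTg, raised to 3. Fdft1 had 17 UMIs in DoubleTg and 1 in TripleTg dendritic-like cells, too few for a call. Among smooth muscle-like cells 3 were higher (14.9%: Ebp, Acly and Acaca) and 3 lower (14.4%: Mvk, Pmvk and Sqle).

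Macrophage-like cells had 5 members higher in TripleTg (14.6%: Mvk, Fdps, Msmo1, Dhcr7 and Scd2) and 0 lower (5.28%). Msmo1 was at 19.7 CPM (64 UMIs) in DoubleTg and 39.6 CPM (208 UMIs) in TripleTg there and Scd2 at 8.30 CPM (27 UMIs) in DoubleTg and 24.2 CPM (127 UMIs) in TripleTg. Endothelial-like cells had 4 higher (13.5%: Mvk, Mvd, Nsdhl and Dhcr7) and 2 lower (8.02%: Fdft1 and Srebf1). Srebf1 was at 38.7 CPM (86 UMIs) in DoubleTg and 9.89 CPM (25 UMIs) in TripleTg in them. Pbsn and Msmb were at 153 and 890.3 CPM in DoubleTg endothelial-like cells, and at 1.58 and 0 CPM in the TripleTg ones, where luminal-like cells had 7.10 and 0 CPM. The part of RNA from other cells in the Srebf1 level was not tested. Against luminal-like cells, fibroblast-like cells had 1 member higher in DoubleTg (23.9%: Acaca) and 4 lower (14.6%), and in TripleTg 2 higher (25.9%: Insig1 and Scd1) and 6 lower (11.3%). Between the libraries fibroblast-like cells had the fewest calls of these classes, with 0 members higher (8.59%) and 1 lower (5.15%: Stard4, at 5.66 CPM (53 UMIs) in DoubleTg and 1.5 CPM (8 UMIs) in TripleTg).

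Around the 29 genes, 73 further genes of lipid metabolism were read in luminal-like cells, and 58 had at least 5 CPM. Of these 3 were at least 2-fold higher in TripleTg and 6 lower, beside the 11.5% and 12.7% of all features. Elovl6, the elongase that lengthens palmitate, was at 0.654 CPM in DoubleTg and 14.8 CPM in TripleTg, a log2 ratio of 4.50 (4.24 to 4.77). The lipid droplet coat gene Plin2 was at 8.25 CPM in DoubleTg and 24.8 CPM in TripleTg, the acyltransferase gene Agpat2 at 29.8 CPM in DoubleTg and 63.7 CPM in TripleTg, and Lpin2, short of 2-fold, at 37.1 CPM in DoubleTg and 73.3 CPM in TripleTg. These 4 had the highest ratios. The lowest ratios were those of Erlin1, an endoplasmic reticulum protein that acts on SREBP and INSIG (24.4 CPM in DoubleTg and 4.50 CPM in TripleTg), the sterol hydroxylase Cyp27a1 (32.2 CPM in DoubleTg and 6.599 CPM in TripleTg), the cholesterol acyltransferase Soat1 (15.002 CPM in DoubleTg and 4.32 CPM in TripleTg) and the phosphatidate phosphatase Lpin1 (5.79 CPM in DoubleTg and 2.11 CPM in TripleTg). None of the 6 genes that supply NADPH and citrate passed 2-fold.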

How the data were processed

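UMI counts per gene were deposited by the authors as a 10x matrix for each of the 2 libraries, 1 per genotype. The submitters' processing notes name Cell Ranger 6.0.2 and mm10, while the DoubleTg matrix header gives 6.1.1. Barcodes needed more than 200 but fewer than 7000 detected genes, with mitochondrial transcripts below 15%, and the TripleTg matrix already met these limits. In DoubleTg 71 barcodes had too few genes, 421 too many and 1042 too many mitochondrial UMIs. Kept cells held 256880958 and 229655259 UMIs, so the intervals are narrow for large classes and wide for small ones. The libraries shared 30 barcodes, of which 29 were kept.

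Each library was clustered with scanpy 1.11.5 (2000 variable genes without the lipid genes, 20 principal components, 15 neighbours, Leiden resolution 1, leidenalg 0.10.2). Naming thresholds were set after the clusters were seen, and unnamed clusters held 1397 and 1080 cells. Scrublet marked 310 DoubleTg cells (2.93%) and 0 TripleTg cells, so doublets in TripleTg were in effect not assessed. Doublets were kept, and leaving them out was an alternative. UMIs were summed per class and given as CPM with exact Poisson intervals, and log2 ratios with conditional binomial intervals, all for counting error only. UMIs are counted per molecule, but cells of 1 library are not replicates, so no test was made. Between the libraries, full values were given for every member called in luminal-like or basal-like cells, and in the other classes, where the rule also asked for them, for some of those called. They were also given for some members in a class where they were not called, and 4 context genes were named at each end. TMM factors came from edgeR 4.0.16 as an alternative scaling. Other alternatives were Leiden resolutions of 0.5 and 2, lipid genes kept for clustering, cells thinned to 5000 UMIs, totals without the 50 most abundant genes, means over cells or clusters, and cell subsets, among them TripleTg without its Tchh-led and Mt4-led clusters. The ratio script was tested on simulated data. Gene positions were matched by Ensembl identifier to GENCODE M21 (GRCm38). The members and lists were chosen with earlier results of these data known.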

Additional observations from a re-analysis of the deposited data

Results flagged for a closer look

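In both libraries 1 unnamed cluster, which entered no comparison between named classes, held high levels of some of these genes. DoubleTg cluster 10 (438 cells, median 2011.5 UMIs, led by Gm26917 and Lars2) had Srebf1 at 117 CPM (157 UMIs), Acaca at 25.3 CPM (34 UMIs) and Fasn at 129 CPM (173 UMIs). The highest named class other than Schwann-like cells had 51.6, 8.43 and 32.9 CPM, and the 39 Schwann-like cells 105, 23.9 and 95.7 CPM. TripleTg cluster 10 (405 cells, median 2608 UMIs, also led by Gm26917) had Srebf1 at 48.8 CPM (92 UMIs) and Fasn at 228 CPM (430 UMIs), where the highest such class had 21.2 and 35.8 CPM and the 25 Schwann-like cells 36.1 and 45.1 CPM. The part of the low UMI counts of these cells in the levels was not tested.

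For 4 genes the log2 ratio of TripleTg over DoubleTg had opposite signs in luminal-like and basal-like cells, with at least 1 of them past 2-fold. The luminal-like minus basal-like difference was 1.78 for Hmgcs1 (1.33 and -0.45), -1.73 for Tm7sf2 (-1.30 and 0.43) and -2.11 for Scd2 (-1.02 and 1.09). Ebp was near level in luminal-like cells (-0.08) and at 1.53 in basal-like cells. The share of all features with such a pattern was not counted, and with 1 library per genotype these differences were not tested.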

How the results depend on the processing

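No paired analysis was possible because each genotype had 1 library, and for the same reason no replicate could be left out. Over 12 settings, 24 of the 29 members kept their sign in luminal-like cells, and 6 of the 8 members past 2-fold stayed past it in each setting. Lss reached -0.91 with equal weight for clusters, an alternative chosen after seeing the data, as was leaving out the Tchh-led and Mt4-led TripleTg clusters, and Scd2 -0.97 in cells with an hMETtg UMI. The median log2 ratio of the fatty acid genes in luminal-like cells was 0.46 as reported, 0.41 with TMM factors, 0.38 without the 50 most abundant genes, 0.38 as a mean over cells of CPM and 0.41 with equal weight for clusters. That of the sterol enzymes in luminal-like cells was -0.11 without the Tchh-led and Mt4-led clusters. In basal-like cells, -0.00 as reported, it ranged from -0.20 at Leiden resolution 2 to 0.17 with equal weight for clusters. The DoubleTg basal-like over luminal-like median of the sterol enzymes, -0.62 as reported, was -0.83 with TMM factors, -0.74 without the 50 most abundant genes and -0.83 in cells thinned to 5000 UMIs. Relative to the median of all features under the same setting, the fatty acid value was 0.48 as reported, 0.48 with TMM factors, 0.49 without the 50 most abundant genes, 0.48 as a mean over cells and 0.47 with equal weight for clusters. The DoubleTg basal-like over luminal-like value relative to all features was -0.71 as reported, -0.69 with TMM factors, -0.68 without the 50 most abundant genes and -0.85 in thinned cells. The cause of the shifts in thinned cells and with other clusters was not tested. The 5 members whose sign changed were Fdps, Sqle, Msmo1, Hsd17b7 and Sc5d, with log2 ratios from -0.04 to 0.22 as reported. Few UMIs limit precision in small classes such as the dendritic-like and Schwann-like cells.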
